A study of Mus musculus with 21 samples.

Results

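Interferon-stimulated genes are the genes that a cell switches on when interferon binds its receptors. The 36 genes described here were taken by symbol, as the non-control probes that the array files give one of these names. Of the 36, 35 had a probe of that name and 34 could be measured, out of 19716 genes tested in all. They were divided by their leading inducer into 24 measured type I genes and 10 measured interferon-gamma genes, a division from textbook knowledge, since many of them answer to both interferons.

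The livers were those of 21 adult males of the mouse strain C57BL/6J, out of 24 mice in the study, the arrays of 3 having been left out by the authors. Every mouse first ate a normal-fat diet for 3 weeks and then a high-fat diet for 12 weeks, so both groups share the high-fat feeding and no normal-fat liver was analysed here. The control group (HF, 11 livers) ate the high-fat diet alone, and the other group (HF-Q, 10 livers) ate it with quercetin, a plant flavonoid, at 0.33% of its weight. Food was withheld for 2 to 4 h before the livers were taken. Each liver was labelled with Cy5 and hybridised against a Cy3-labelled pool of all livers, so each value is a log2 ratio of 1 liver to that pool. Between 2 livers, a difference of 1 in the value of a gene is a 2-fold difference. Ratios were normalized within each array and the dyes were not swapped, so a value of 0 need not be the level of the pool. The albumin gene Alb, for instance, was above 0 in every liver (lowest 0.329 in HF and 0.358 in HF-Q). The comparison asks whether the genes of the interferon response differ with quercetin, and the values of the single livers show how they vary among mice on 1 diet.

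Type I interferons (alpha and beta) signal through a receptor of their own to a complex that holds STAT2 and IRF9 and binds the interferon-stimulated response element (ISRE) in promoters. Interferon-gamma, made mainly by T cells and NK cells, acts on promoters through gamma-activated sites (GAS), and induces IRF1, which in turn binds elements like the ISRE. In liver, hepatocytes and resident macrophages both respond, and the products block viral replication, sense viral RNA, attack vacuoles that hold pathogens and load peptides for T cells.

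Promoters were at hand for 26 of the 36 genes, from RefSeq on build GRCm38.p6, as windows of 250 bases before to 50 after a start. The ISRE core, searched as GAAA, any 2 bases and GAAA again, was found on either strand in 15 of these 26 genes (57.7%), against 1079 of 27025 genes in the same table (3.99%). It was present in 10 of 18 type I genes (55.6%) and in 5 of 8 interferon-gamma genes (62.5%), so these letters alone did not separate the branches. The GAS core TTCNNNGAA, which reads the same on both strands, was found in 6 of 26 (23.1%), against 9.55% of all genes. The 120 bases before the start are shown for 3 type I genes and 3 interferon-gamma genes that carry the values below, because they differ in these elements. Each runs 5′ to 3′ on the strand of the gene, and capitals mark every match to either core on either strand, overlapping matches being run together.
Isg15: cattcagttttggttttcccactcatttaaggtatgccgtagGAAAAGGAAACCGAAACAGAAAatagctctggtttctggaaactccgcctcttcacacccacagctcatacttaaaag
Ifit1: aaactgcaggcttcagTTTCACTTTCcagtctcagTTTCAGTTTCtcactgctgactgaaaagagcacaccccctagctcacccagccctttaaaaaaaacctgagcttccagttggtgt
Oas1a: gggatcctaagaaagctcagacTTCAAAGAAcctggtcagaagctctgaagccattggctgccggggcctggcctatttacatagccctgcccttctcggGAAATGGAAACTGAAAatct
Igtp: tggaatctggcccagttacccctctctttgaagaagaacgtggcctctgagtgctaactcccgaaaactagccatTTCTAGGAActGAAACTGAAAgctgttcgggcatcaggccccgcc
Gbp2: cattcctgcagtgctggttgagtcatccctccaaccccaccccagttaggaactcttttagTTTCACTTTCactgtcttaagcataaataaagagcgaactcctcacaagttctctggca
Irf1: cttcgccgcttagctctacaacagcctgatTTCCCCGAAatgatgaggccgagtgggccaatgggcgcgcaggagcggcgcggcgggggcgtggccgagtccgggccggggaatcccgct
In order, these windows are chr4:156200819-156200938 (minus strand), chr19:34640769-34640888 (plus), chr5:120907526-120907645 (minus), chr11:58199436-58199555 (plus), chr3:142620543-142620662 (plus) and chr11:53769894-53770013 (plus) of GRCm38.p6. The Isg15 window held 3 overlapping ISRE matches and no GAS match, and the Ifit1 window held 2 ISRE matches. The windows of Oas1a and Igtp held both cores, that of Gbp2 an ISRE match only and that of Irf1 a GAS match only. A match is a description of the letters, not evidence that a factor was bound in these livers.

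The brightest probe stood for each gene. Of the 34 measured genes, 33 had a Cy5 signal well above background on all 21 arrays and none was saturated. The exception was Mx1, well above it on 10 of the 11 arrays of HF livers and on 7 of the 10 of HF-Q livers. C57BL/6 mice carry defective alleles of Mx1 and Mx2, the dynamin-like GTPases that block influenza and other viruses, so these values are transcript levels and not antiviral activity. Oas1g, a copy of the RNA-sensing enzyme Oas1a, had 2 probes, the brighter of which reached that mark on 4 of the 11 HF arrays and on 0 of the 10 HF-Q arrays, and it was not tested. Ifi27 had no probe of that name. A probe that the array calls Ifi27l1 matches an accession now named Ifi27, and is given here without being counted: its difference between diets was 0.087 ± 0.098 (HF-Q minus HF, SE; limma adjusted p = 0.977). Cross-hybridisation among similar genes, such as Oas1a with Oas1g, Ifit3 with Ifit3b, and the Gbp genes with each other, was not tested. In whole-liver RNA, fewer cells of a type and less RNA per cell cannot be told apart.

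None of the 34 genes differed between the diets past the threshold, which was a Benjamini-Hochberg adjusted p of 0.05 in limma's test over all 19716 genes. No gene on the array did (0% called, lowest adjusted p = 0.381). At an unadjusted p under 0.05 stood 1173 of the 19716 genes (5.95%), 3.01% of all genes higher in HF-Q and 2.94% lower. Of the 34 genes here, 1 was among them, Mx2. The values of the groups overlapped for 34 of 34 genes, while over the whole array 0.00507% of the genes, 1 gene, had groups that did not overlap. Fitted differences (HF-Q minus HF, log2) were above 0 for 18 of the 34 genes and below 0 for 16, with a median of 0.010, against a median of -0.0045 and 46.9% above 0 over all genes. They ran from -0.157 for Igtp to 0.231 for Mx2, and the 95% intervals of the 34 genes lay between -0.59 and 0.40.

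**Figure D1:**
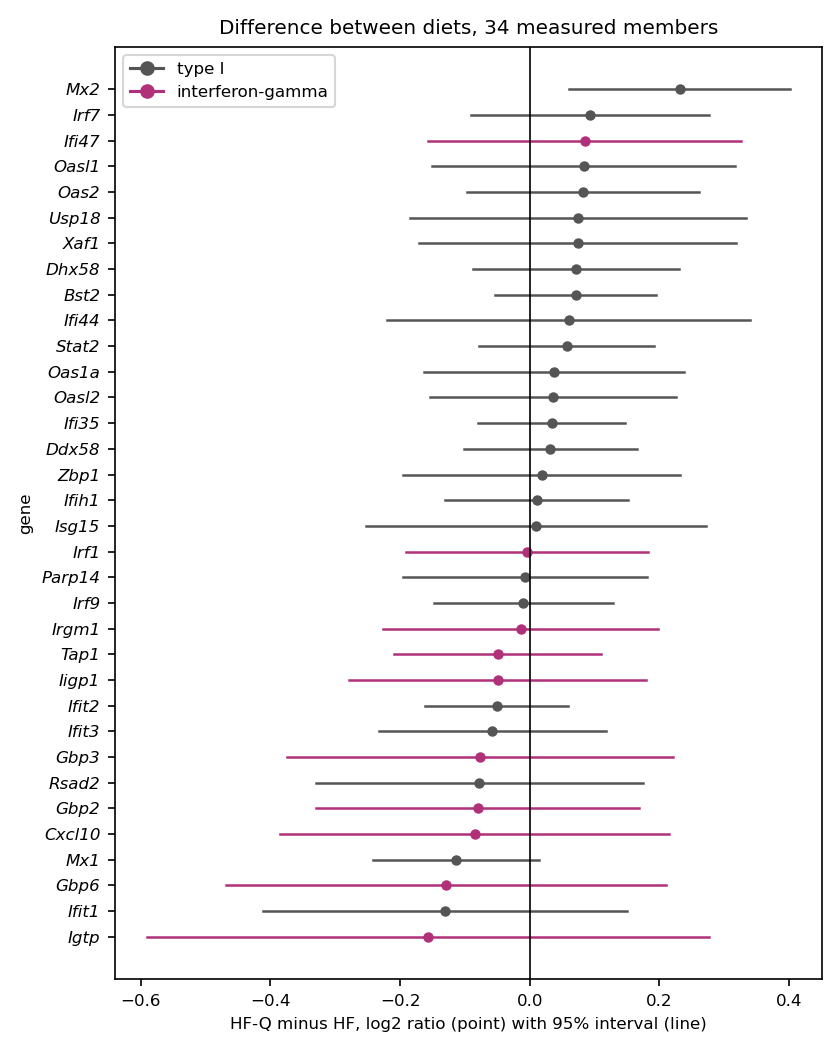
Fitted difference between diets for each of the 34 measured genes (x axis, HF-Q minus HF, log2; point with 95% interval as a line; 10 HF-Q and 11 HF livers), sorted, with type I genes in grey and interferon-gamma genes in magenta. Of these intervals, that of Mx2 alone does not reach 0, and its adjusted p in limma is 0.769.

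The branches were spread differently around 0. Among the 24 type I genes 17 fitted differences were above 0 and 7 below, with a median of 0.035. Among the 10 interferon-gamma genes 1 was above 0 and 9 below, with a median of -0.063. Neither set of signs was tested, and both depended on the livers included. Within slides 1, 2 and 3 the type I median was 0.169, -0.11 and -0.036, and the interferon-gamma median was -0.043, -0.194 and -0.029. Without HF replicate 6 the interferon-gamma median was 0.0069, with 6 genes above 0 and 4 below. Without HF-Q replicate 3 it was -0.114, and without both of these livers -0.043, each time with 1 gene above 0 and 9 below.

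Among the type I effectors, Mx2 had the lowest p. Its log2 ratio ran from -0.414 over a median of -0.071 to 0.117 in HF livers, and from -0.221 over 0.082 to 0.551 in HF-Q livers. HF-Q replicates 2, 3, 4 and 9 lay above every HF liver, HF replicates 3, 8, 10 and 11 lay below every HF-Q liver, and the rest overlapped. The difference was 0.231 ± 0.083 (SE; limma unadjusted p = 0.0103, adjusted p = 0.769). It was 0.486 within slide 1, -0.039 within slide 2 and 0.164 within slide 3. The probe lies at chr16:97782327-97782386 of build NCBI37 (mm9), the build of all probe coordinates here. Mx1, its neighbour on chromosome 16, had a fitted difference below 0. It ran from -0.26 over 0.026 to 0.263 in HF and from -0.306 over -0.149 to 0.134 in HF-Q livers, a difference of -0.114 ± 0.062 (limma adjusted p = 0.87), and was partly below background as given above.

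The other type I effectors differed by less than their spread between livers. Bst2, or tetherin, which holds budding virus at the cell surface, ran from -0.25 over -0.15 to 0.068 in HF and from -0.169 over -0.061 to 0.367 in HF-Q livers. Its difference was 0.071 ± 0.060 (limma adjusted p = 0.975), and the 0.367 belonged to HF-Q replicate 7 alone. Ifit1, which binds viral RNA that lacks the host cap modification, ran from -0.557 over 0.019 to 0.327 in HF and from -0.841 over -0.242 to 0.353 in HF-Q livers. Its difference was -0.13 ± 0.14 (limma adjusted p = 0.975), and each group held livers at both ends. Its relatives Ifit2 and Ifit3 differed by -0.051 ± 0.053 and -0.058 ± 0.085. The oligoadenylate synthetases, which activate RNase L on sensing double-stranded RNA, and their relatives differed by 0.082 ± 0.086 (Oas2), 0.038 ± 0.097 (Oas1a), 0.083 ± 0.113 (Oasl1) and 0.036 ± 0.092 (Oasl2). Isg15, a ubiquitin-like modifier, differed by 0.0099 ± 0.127 and Usp18, which removes it from proteins and damps the type I receptor, by 0.074 ± 0.125. Rsad2, or viperin, differed by -0.078 ± 0.122. Ifi44, Ifi35, Xaf1, Zbp1 and Parp14 had differences from -0.0077 to 0.074. None of these genes passed the threshold.

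The 3 cytosolic RNA sensors had fitted differences of 0.011 to 0.071. Dhx58 (LGP2) ran from -0.271 over -0.0039 to 0.357 in HF and from -0.249 over 0.13 to 0.374 in HF-Q livers, with nearly the same ends in both groups. Its difference was 0.071 ± 0.077 (limma adjusted p = 0.975). Ddx58 (RIG-I) and Ifih1 (MDA5) differed by 0.031 ± 0.065 and 0.011 ± 0.069. The transcription factors of the type I response did not pass the threshold either. Irf7, which amplifies the alpha and beta interferon genes, ran from -0.438 over -0.117 to 0.266 in HF and from -0.431 over -0.058 to 0.377 in HF-Q livers, and differed by 0.093 ± 0.089 (limma adjusted p = 0.975). Stat2 differed by 0.057 ± 0.065 and Irf9 by -0.010 ± 0.067 (limma adjusted p = 0.977 and 0.999). These 2 proteins are parts of the factor that binds the ISRE.

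Of the interferon-gamma genes, Igtp had the largest fitted difference and the largest spread. It encodes a GTPase (Irgm3) of the immunity-related family that acts on vacuoles holding pathogens, and its probe lies at chr11:58020927-58020986 of mm9. Its log2 ratio ran from -0.535 over -0.266 to 1.48 in HF livers and from -0.761 over -0.515 to 0.62 in HF-Q livers. HF replicate 6 stood at 1.48 with every other HF liver below 0, and HF-Q replicates 3 and 4 stood at 0.62 and 0.494 with 1 of the other HF-Q livers, replicate 9, just above 0. The difference of -0.157 ± 0.209 (limma adjusted p = 0.989) became 0.0027 without HF replicate 6. Gbp6, a guanylate-binding protein, ran from -0.522 over -0.122 to 1.19 in HF and from -0.653 over -0.175 to 0.535 in HF-Q livers, the highest again being HF replicate 6 and HF-Q replicate 3. It differed by -0.129 ± 0.164 (limma adjusted p = 0.989). Irf1, the regulator of this branch, differed by -0.0042 ± 0.0903 (limma adjusted p = 0.999). It ran from -0.219 over -0.091 to 0.453 in HF and from -0.291 over 0.0021 to 0.443 in HF-Q livers, with the same 2 livers highest. Gbp2, Gbp3, Irgm1, Iigp1, Tap1 (the peptide transporter of antigen presentation) and Cxcl10 (a chemokine that draws T cells) had differences from -0.085 to -0.014, and Ifi47 one of 0.085.

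**Figure D2:**
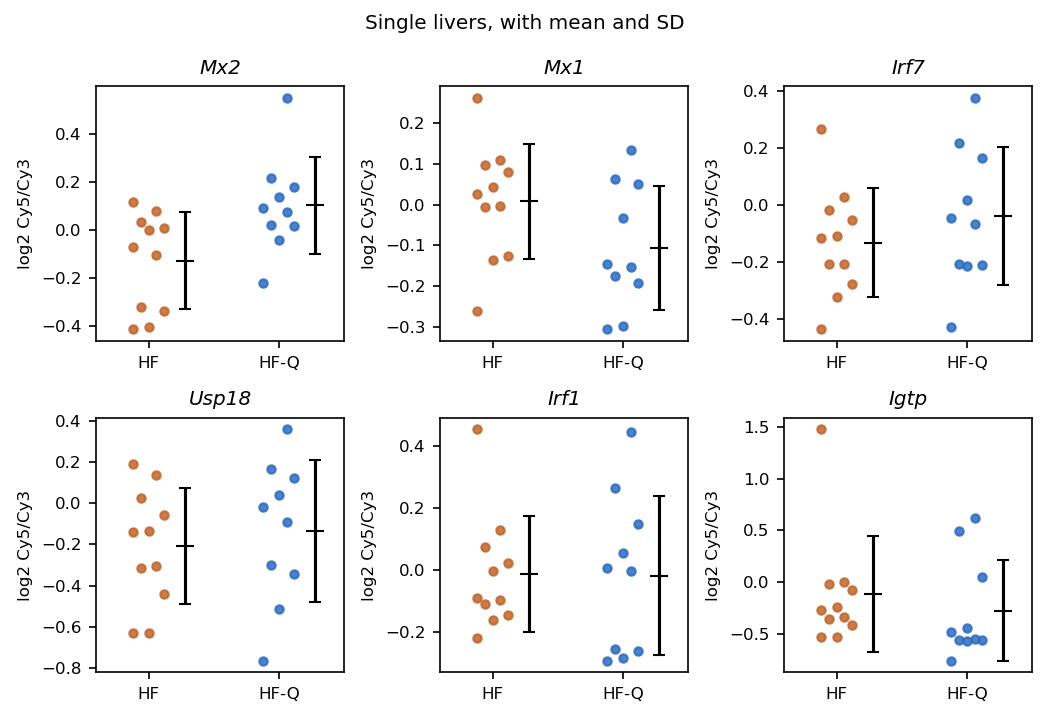
Log2 Cy5/Cy3 (y axis) of 6 genes in single livers of the HF (n = 11, orange) and HF-Q (n = 10, blue) groups, with the mean and SD as a cross bar and whiskers beside the points. The groups overlap in every panel, and in Igtp the liver at 1.48 is HF replicate 6.

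Set beside all other genes, the interferon-stimulated genes varied much from liver to liver. The SD over the 21 livers had a median of 0.231 (log2) over the 34 genes and of 0.126 over all genes, and 32 of 34 lay above that second value. The 90th percentile of all genes was an SD of 0.216, and 22 of the 34 genes lay above it. The highest liver exceeded the lowest by 1.94-fold in the median of the 34 genes and by 1.40-fold in that of all genes. This fold was smallest for Ifit2 (1.33) and largest for Igtp (4.72), followed by Gbp6 (3.58) and Gbp3 (2.83). Of the type I genes, Ifi44 (2.68), Isg15 (2.40) and Ifit1 (2.29) had the widest ranges. The offset used in background correction draws ratios of dim genes toward 0, so the folds of dim genes are understated.

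**Figure D3:**
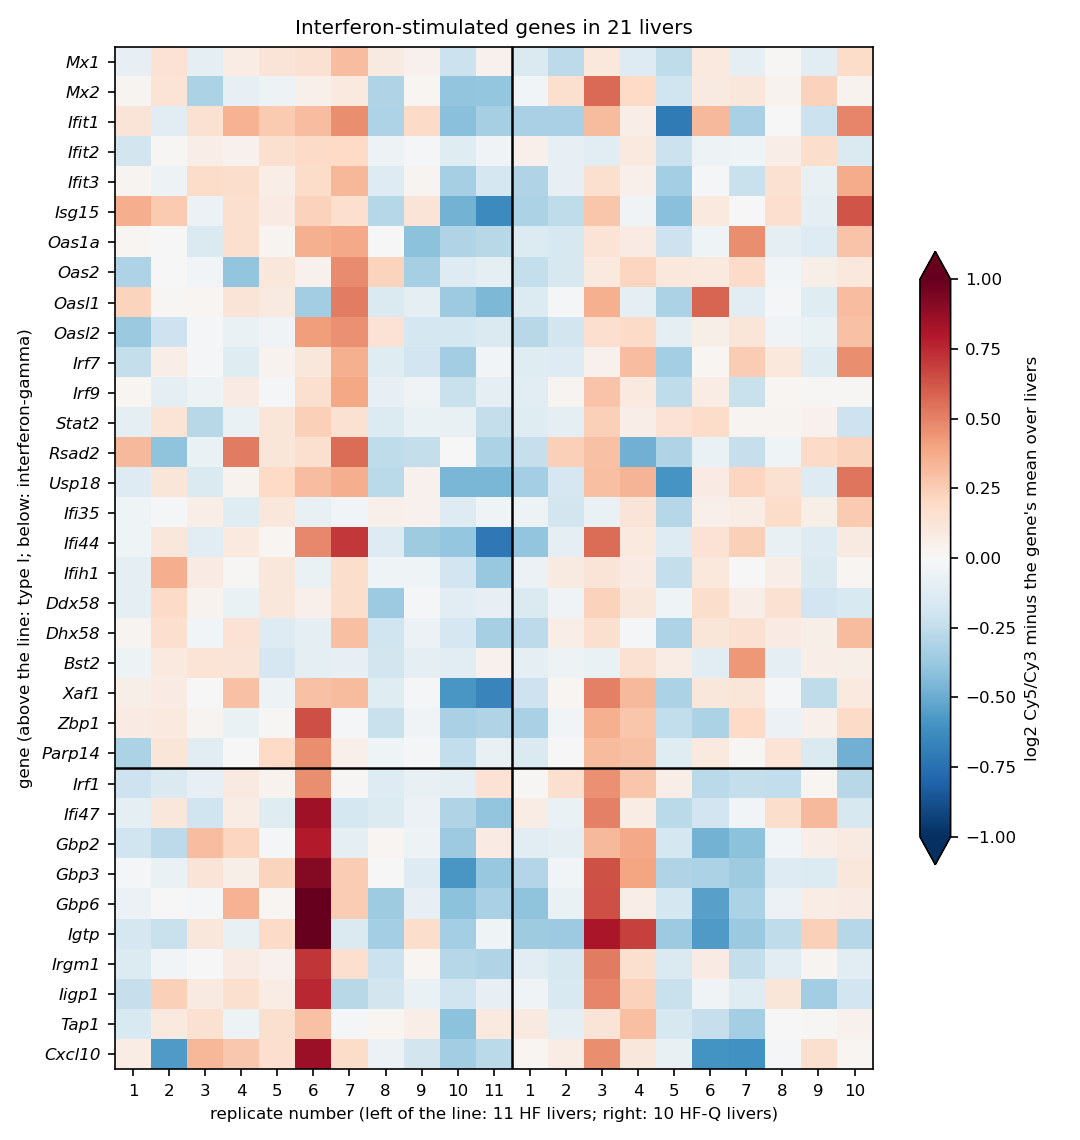
Log2 Cy5/Cy3 of each measured gene (rows, type I above the horizontal line and interferon-gamma below) in each liver (columns, HF left and HF-Q right of the vertical line), less the mean of the gene over 21 livers; red is above and blue below that mean, and colours end at 1 and -1. HF replicate 6 and HF-Q replicate 3 are red over the interferon-gamma genes, and HF replicates 10 and 11 and HF-Q replicate 5 are mostly blue over the type I genes.

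The highest values of the interferon-gamma genes were held by few livers. HF replicate 6 was the highest of all 21 livers for 9 of 10 interferon-gamma genes, and for the other one, Tap1, it stood at 0.233 against 0.244 in HF-Q replicate 4. The mean log2 ratio of the 10 genes was 0.82 in HF replicate 6, 0.458 in HF-Q replicate 3 and 0.228 in HF-Q replicate 4. Every other liver was at 0.075 or below, and HF replicate 10 (-0.376), HF-Q replicate 6 (-0.355) and HF-Q replicate 7 (-0.343) were lowest. Each diet group thus held livers at both ends.

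The highest type I values were mostly in other livers, while the low end was partly shared. HF replicate 7 was the highest liver for 7 of 24 type I genes, among them Ifi44, Oasl2 and Rsad2, and HF-Q replicate 10 for another 7, among them Irf7, Isg15 and Usp18. HF replicate 6 and HF-Q replicate 3 were each highest for 3. HF replicate 11 and HF-Q replicate 5 were each lowest for 6, and HF replicate 10 for 3. HF replicates 10 and 11 were each also lowest for 2 interferon-gamma genes, and HF replicate 10 had the lowest mean of both branches. The mean of the 24 genes was 0.229 in HF replicate 7, 0.169 in HF-Q replicate 3, 0.119 in HF replicate 6 and 0.112 in HF-Q replicate 10, and lowest in HF replicates 10 (-0.317) and 11 (-0.31). The livers HF replicate 7 and HF-Q replicate 10, high for type I genes, had interferon-gamma means of -0.025 and -0.108. HF-Q replicates 6 and 7, near the bottom for interferon-gamma genes, had type I means of 0.026 and 0.0052.

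**Figure D4:**
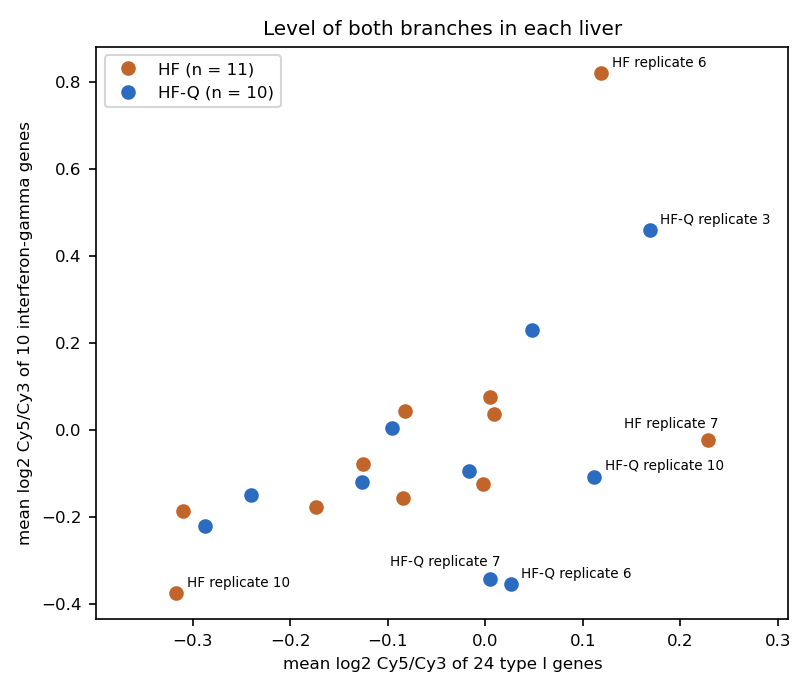
Mean log2 Cy5/Cy3 of the 10 interferon-gamma genes (y axis) against that of the 24 type I genes (x axis), 1 point per liver (HF orange, n = 11; HF-Q blue, n = 10). HF replicate 6 stands highest on the y axis at 0.82 and HF replicate 7 farthest right at 0.229.

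Markers of other cells were measured in the same livers. HF replicate 6 had the highest mean of the 11 measured lymphocyte and NK cell markers (0.221, HF range -0.183 to 0.221, HF-Q range -0.12 to 0.077) and the second highest of the 12 measured Kupffer cell and macrophage markers (0.35, after 0.587 in HF replicate 8). HF-Q replicate 3 was at 0.035 and -0.134 on these scales. The Kupffer mean is one of unscaled log2 ratios, and Marco varied most in it (SD 1.22 in HF and 0.68 in HF-Q livers). Taken singly, the 12 Kupffer markers had a median r of 0.357 with the interferon-gamma mean, and Marco had 0.238. Over the 21 livers the interferon-gamma mean had r = 0.54 with the lymphocyte and NK mean and 0.351 with the Kupffer mean, and 0.339 and 0.093 without HF replicate 6 and HF-Q replicate 3. For the type I mean these r were 0.070 and -0.048. The mean of the 9 stellate cell markers had r = 0.455 with the type I mean and 0.491 with the interferon-gamma mean, and 0.376 and 0.415 without those 2 livers. The other 7 cell type lists had r of -0.276 to 0.077 with the type I mean and of -0.27 to 0.358 with the interferon-gamma mean. Of the defining T and NK cell markers, Cd8a, Ncr1 and Klrb1c did not pass the filter on dim probes. The part of these cells in the result was not tested. The array of HF replicate 6 had 48.1% of its probes well above background, against 44.2% to 51.3% over all arrays. That share does not bear on single genes, and a technical part in its interferon-gamma values was not tested. Both this array and that of HF-Q replicate 3 lay in row 1 of their slides. The 10 arrays of row 1 had a mean interferon-gamma level of 0.089, against -0.16 in row 2 (type I, 0.0022 and -0.106). Values with row means removed are given next.

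The levels of the genes within each branch were correlated across livers. The median Pearson r between 2 genes over 21 livers was 0.719 for the 45 pairs of interferon-gamma genes, 0.432 for the 276 pairs of type I genes and 0.328 for the 240 pairs with 1 gene of each branch. Over all pairs of the 19224 genes with a value on every array it was 0.001. An r above 0.5 was found in 95.6% of interferon-gamma pairs, 42.0% of type I pairs, 21.2% of pairs between branches and 3.14% of all pairs. These r are descriptions: all genes share the same 21 arrays, and genes with the same liver on top are not independent. With the mean of each diet group removed the medians were 0.726, 0.462 and 0.34, with slide means removed 0.718, 0.399 and 0.354, and with row means removed 0.664, 0.41 and 0.241.

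The co-variation of the interferon-gamma genes was smaller without the 2 livers highest in them. Without HF replicate 6 and HF-Q replicate 3 the median r was 0.436 among interferon-gamma genes and 0.213 between branches, while it was 0.431 among type I genes. Within slides 1, 2 and 3 the type I median was 0.533, 0.551 and 0.403, the interferon-gamma median 0.637, 0.933 and 0.53, and that between branches 0.224, 0.702 and 0.179, over 7, 6 and 8 livers. Slide 3 held neither of the 2 livers highest in interferon-gamma genes, HF replicate 6 being on slide 2 and HF-Q replicate 3 on slide 1. It did hold HF-Q replicate 4, the next highest liver in the interferon-gamma mean (0.228). With arrays only centred on their median in place of loess the 3 medians were 0.754 (type I), 0.775 (interferon-gamma) and 0.604 (between), but the median over all gene pairs was then 0.46.

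**Figure D5:**
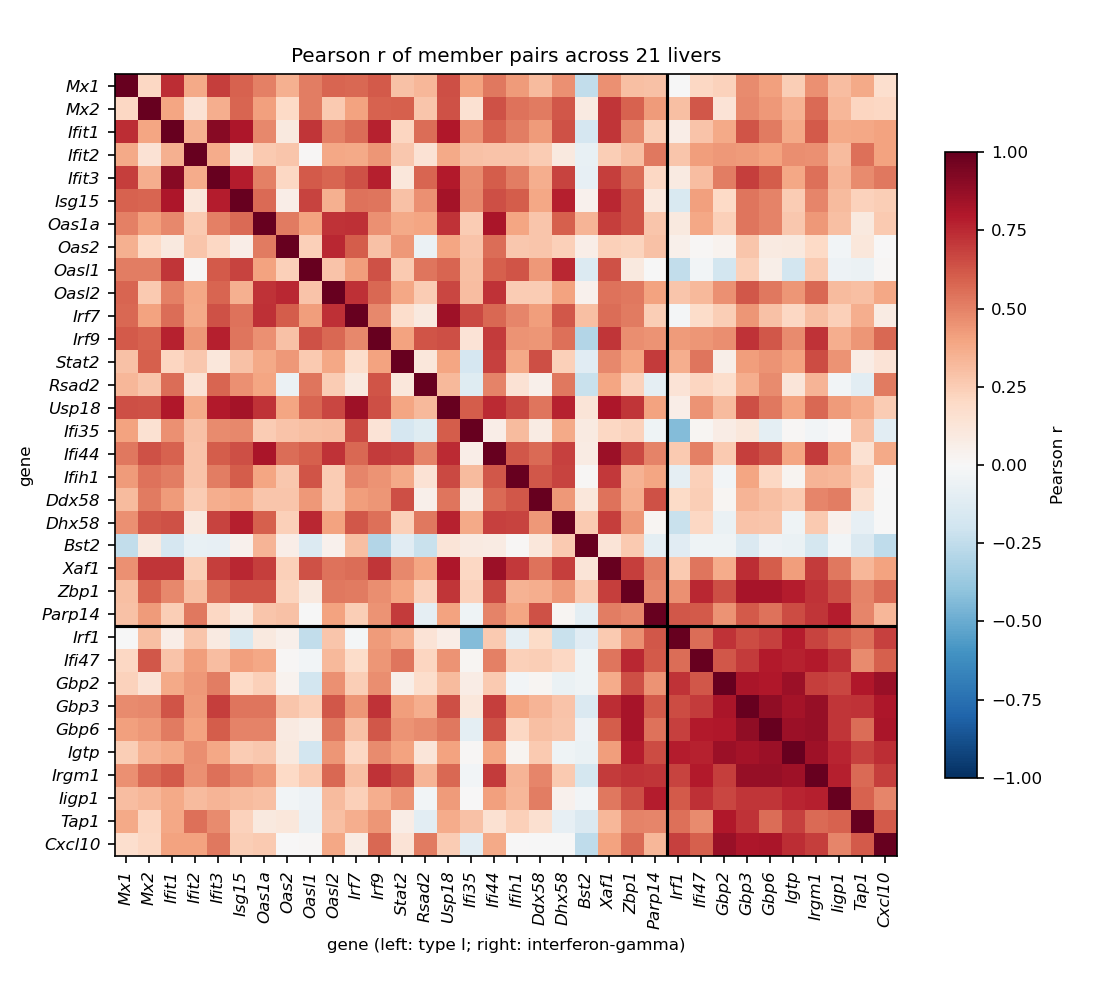
Pearson r across 21 livers for each pair of the 34 measured genes (rows and columns in the same order, type I before and interferon-gamma after the black lines; red above 0, blue below 0). The interferon-gamma block at the lower right has a median r of 0.719 and the type I block at the upper left one of 0.432, with Bst2 pale or blue against most genes.

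The closest type I pair was Ifit1 with Ifit3 (r = 0.907), neighbours in 1 gene family, followed by Ifi44 with Xaf1 (0.854) and Irf7 with Usp18 (0.844). Gbp3 with Gbp6 (0.889), Gbp3 with Irgm1 (0.872) and Gbp2 with Cxcl10 (0.861) were among the closest interferon-gamma pairs, the last one joining genes of unlike sequence. All 10 interferon-gamma genes had a higher median r with their own branch than with the other. Of the type I genes, 19 did so and 5 did not: Parp14 (0.616 with interferon-gamma genes, 0.296 with type I genes), Zbp1 (0.684 and 0.463), Ifit2 (0.422 and 0.287), Stat2 (0.411 and 0.375) and Oasl2 (0.414 and 0.405). Bst2 went with neither branch, with median r of 0.045 and -0.089. Usp18 (0.647), Xaf1 (0.636) and Ifi44 (0.608) stood closest to the other type I genes. The means of the branches had r = 0.54 over all livers, 0.614 in HF, 0.464 in HF-Q, 0.413 without HF replicate 6 and HF-Q replicate 3, and 0.45, 0.905 and 0.344 within slides 1, 2 and 3.

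Some genes had more than 1 kept probe, which gave a check on the measurement. The brighter and the dimmer probe of Isg15 had r = 0.983 over 21 livers, those of Iigp1 0.966, Gbp6 0.948, Irgm1 0.891, Oas1a 0.861 and Zbp1 0.733. The probe pairs of Ddx58 (0.243) and Ifih1 (0.106) did not follow each other, so the r of these 2 sensors with other genes rest on the probe chosen. Some fitted differences had the other sign in the dimmer probe: Iigp1 (0.019), Irgm1 (0.0020), Zbp1 (-0.019) and Ifih1 (-0.067). With kept probes averaged, 1 interferon-gamma difference was above 0 and 9 below, and 15 type I differences were above 0 and 9 below.

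The regulators were set against the other genes in 65 pairs, each with a permutation test of 100000 resamples and Benjamini-Hochberg adjustment over the 65 pairs. Genes outside the list were not tested against Irf7 or Irf1. The counts of pairs that passed, for both regulators, therefore have no share over all genes to be set beside. Irf7 had a median r of 0.546 with the 23 other type I genes (median rho 0.552), from 0.095 for Rsad2 to 0.844 for Usp18. Of the 23 pairs, 13 passed an adjusted permutation p of 0.05 by r and 13 by rho, and the 13 that passed by r were above 0 on each of the 3 slides. Without the 2 livers farthest from the Irf7 median, HF-Q replicate 10 and HF replicate 7, the median r was 0.501 and 10 of the 13 were above 0.4. Usp18 was at -0.765 in HF-Q replicate 5 and at -0.631 and -0.629 in HF replicates 11 and 10, and at 0.359 in HF-Q replicate 10, 0.19 in HF replicate 7 and 0.166 in HF-Q replicate 4. Irf7 was at -0.431, -0.117 and -0.438 in the first 3 of these livers and at 0.377, 0.266 and 0.219 in the last 3. For this pair rho was 0.852, the adjusted permutation p was 0.00065 for both measures (unadjusted 1e-05, the smallest that 100000 resamples can give), and r was 0.79 without the 2 livers and 0.751, 0.84 and 0.922 within slides. Oasl2 (r = 0.733, rho = 0.718) and Oas1a (r = 0.732, rho = 0.731) followed, each with adjusted permutation p of 0.00234 for r and 0.0078 for rho. With the 10 interferon-gamma genes Irf7 had a median r of 0.243, and 0 of 10 passed.

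For Irf1 the median r was higher with the interferon-gamma genes, a difference between branches that was not tested. Its median r was 0.673 with the 9 other interferon-gamma genes and 0.098 with the 23 type I genes. By r 9 of 9 interferon-gamma pairs passed an adjusted permutation p of 0.05, led by Igtp (r = 0.782, rho = 0.582), while by rho 3 passed, namely Igtp, Gbp2 and Cxcl10. Without HF replicate 6 and HF-Q replicate 3, the livers farthest from the Irf1 median, the median r was 0.295. Igtp (0.556) and Gbp2 (0.527) kept the highest r without them. Within slides 1, 2 and 3 the median r with interferon-gamma genes was 0.578, 0.854 and 0.598, the last one on the slide that held neither liver. That slide did hold HF-Q replicate 4, the next highest liver in the interferon-gamma mean (0.228). It was the highest of that slide for both Irf1 (0.263) and Igtp (0.494). On slide 3 the 9 r ran from -0.127 for Ifi47 and 0.134 for Iigp1 to 0.71 for Gbp2 and 0.78 for Gbp3. Of the type I genes 1 passed by r, Parp14 (r = 0.621, rho = 0.382, 0.351 without the 2 livers), and 0 by rho. Irf7 and Irf1 themselves had r = -0.019 and rho = -0.078 (permutation p = 0.934 and 0.739).

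No gene of the 4 pathway lists passed the threshold between the diets. Of 13 listed interferon ligands and receptors 7 were measured, with 5 differences above 0 and 2 below (median 0.016). Of the interferon genes themselves, Ifna1 and Ifnl3 were well above background on all 21 arrays and differed by 0.038 ± 0.051 and 0.029 ± 0.054. Whether the signals of these 2 probes were specific to their genes was not tested. Ifng was well above background on 6 of 21 arrays, Ifna2 on 8, Ifnb1 on 1 and Ifna4 on 0, and they were not tested. Ifnlr1, a receptor chain of the lambda interferons, was well above background on 0 of 21, and Ifnl2 had no probe of that name. The receptor chains Ifnar2 and Il10rb differed by 0.016 ± 0.038 and 0.083 ± 0.065. Of 22 measured signalling and sensing genes, 12 were above 0 and 10 below (median 0.0057). Among them Ikbke, a kinase that activates the interferon regulatory factors, had the lowest p (0.157 ± 0.052, limma adjusted p = 0.736). Tmem173 had a probe well above background on 21 of 21 arrays, but this went under another gene name and is missing from the 22. Of 34 other interferon-induced effectors, 18 were above 0 and 16 below (median 0.0075), and of 25 interferon-gamma linked genes of antigen presentation and cell defence 8 were above 0 and 17 below (median -0.042).

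The lists differed in how many of their genes were correlated with the branch means across livers. The mean of the type I genes had r above 0.5 with 16 of 34 other interferon-induced effectors, against 0.964% of all genes. The mean of the interferon-gamma genes had r above 0.5 with 18 of 23 interferon-gamma linked genes that had a value on every array, against 2.17% of all genes. Of the 7 ligands and receptors 0 had r above 0.5 with the type I mean and 1 with the interferon-gamma mean, and of 21 signalling and sensing genes 2 and 6 did. Among 13654 named genes outside the list, those most like the type I mean were Rtp4 (r = 0.83), Nmi (0.826), Trim34a (0.793), Gm9706 (0.788), Apol9b (0.783), Apol9a (0.78), Trim12a (0.774) and Trim30a (0.744). Their r without HF replicate 6 and HF-Q replicate 3, livers chosen for their interferon-gamma level, ran from 0.683 to 0.821. Those most like the interferon-gamma mean were Tgtp2 (0.973), Irgm2 (0.913), Samhd1 (0.907), Psmb8 (0.853) and Cd274 (0.847), with r of 0.913, 0.714, 0.697, 0.831 and 0.598 without those 2 livers. Some of these 13 genes also had r above 0.5 with the mean of the other branch. With the interferon-gamma mean these were Rtp4 (0.734), Apol9b (0.608), Apol9a (0.569) and Trim30a (0.511). With the type I mean it was Psmb8 (0.588), and the rest were below 0.5. None of the 13 genes passed the threshold between the diets (limma adjusted p of 0.975 to 0.999).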

How the data were processed

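Liver RNA of 11 HF and 10 HF-Q mice, 1 array each, was measured on 2-colour Agilent arrays, 200 ng of RNA per mouse, with the liver in Cy5 and a pool of all livers in Cy3 and no dye swap, per the labels. The authors deposited the scanner files of Agilent Feature Extraction 10.7.3.1, named in the submitters' processing notes, whose mean intensity of spot and background is raw, while a processed intensity has background and dye differences removed, per the file headers. Spot flags were made by the same software. A deposited table of log2 values has equal medians (7.92) in every column. Its columns had r = 0.985 to 0.999 with log2 Cy5, and it served as an alternative because its making is not described in the sources used.

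Each array held 62976 spots and 55681 probes, and no 2 arrays were identical. Signals were background-corrected by normexp (offset 50), and ratios normalized by loess within arrays, in limma 3.58.1 under R 4.3.3. Controls and spots marked as uneven or outliers (0.989% to 1.38%) had weight 0 and were then left out. Spots of a probe were averaged, probes well above background in Cy5 on at least 10 of 21 arrays were kept (26288), and the brightest stood for its gene. The diets were compared by the moderated test of limma, two-sided, adjusted over 19716 genes, which was tested on simulated data. Correlations were computed in Python 3.11.15 with SciPy 1.17.1. All gene pairs served as their background, in place of the random draw first planned. Arrays lay on 3 slides (3 HF and 4 HF-Q, 4 and 2, 4 and 4) in 2 rows. The number of arrays limits the precision. Each mouse had 1 array, so the spread behind the limma p-values holds differences between mice and between arrays, which cannot be told apart.

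The 36 genes, their branches, the 4 pathway lists and the 10 cell type lists were chosen with earlier results of these data known. Full statistics are given for up to 5 genes per direction with the lowest p and for Irf7, Irf1, Stat2 and Irf9. Outside the 36 genes, up to 4 of lowest p per pathway list and the 8 and 5 named genes most like the branch means were eligible. Replicate numbers did not pair the mice: deviations of mice with the same number had r = -0.337 to 0.158. Alternatives changed the offset, signals, normalization, filter, probe choice, blocks, weights and livers. A few measured list genes are not named in the text, though they count in the lists and tests. Tmem173 and the erythroid marker Hbb-b1 had probes well above background on 21 arrays. These went under another gene name, so both genes were left out of their lists by name and not for dimness.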

Additional observations from a re-analysis of the deposited data

Results flagged for a closer look

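In HF-Q livers, 3 of the 36 series of values searched, 1 for each measured gene and 1 for each branch mean, had a single liver far from the others, by the size of its gap to the nearest liver against the range of the group. Chance alone marks about 1 in 20 such groups. The 11 HF livers were not searched, because the critical values used went no further than 10 livers. Bst2 stood at 0.367 in HF-Q replicate 7, with the next liver at 0.084. Gbp6 stood at 0.535 in HF-Q replicate 3, with the next at -0.032, and Irgm1 at 0.41 in the same liver, with the next at 0.047. Gbp6 and Irgm1 also had their highest HF value in 1 liver, HF replicate 6 (1.19 and 0.606).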

How the results depend on the processing

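None of the 34 genes passed the threshold under any alternative. Over all genes limma called 1 within slide 2 and 1 with array weights, and 0 to 4 when 1 liver was left out (4 when it was HF replicate 2, 1 when it was HF-Q replicate 10). With 1 liver left out, the median difference ran from -0.0201 to 0.038 over all 34 genes, from 0.0117 to 0.0581 over type I genes and from -0.114 to 0.00693 over interferon-gamma genes. Within slide 2 the median over all 34 genes was -0.168. Over up to 40 settings 3 genes, Cxcl10, Gbp2 and Ifit2, had differences below 0 in each, and the other measured genes took both signs.

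Single genes changed sign as follows, none past the threshold, and the causes were not tested. Irf1 was at 0.047 with median centring, 0.00633 in the deposited table, 0.000946 with a slide block and 0.0307 with array weights, and Irf9 at 0.038 with median centring, 0.0105 with Cy5 alone and 0.0185 in the deposited table. Within slide 1 Bst2 was at -0.0136, Mx1 at 0.0434, Ifit1 at 0.201, Gbp6 at 0.172 and Irf9 at 0.148. Within slide 2 Mx2 was at -0.0391, Irf7 at -0.066, Dhx58 at -0.211 and Irf1 at 0.0165. Within slide 3 Oas2 was at -0.0198, Dhx58 at -0.0311, Igtp at 0.121, Irf1 at 0.0333 and Stat2 at -0.0178. With 1 liver left out Irf1 ran from -0.0553 to 0.0424, Irf9 from -0.0424 to 0.0278 and Igtp from -0.256 to 0.00274. With the replicate number as a block no gene was called and Irf1 was at 0.0101; the numbers did not pair the mice, the best match being the own number for 0 of 10.

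The median r among type I genes was 0.754 with median centring, 0.533 within slide 1 and 0.551 within slide 2 (0.395 to 0.496 with 1 liver left out). Among interferon-gamma genes it was 0.933 within slide 2, 0.53 within slide 3 and 0.436 without HF replicate 6 and HF-Q replicate 3, an alternative chosen after seeing the data (0.561 to 0.749 with 1 left out, the lowest without HF replicate 6). Between branches it was 0.604 with median centring, 0.702 within slide 2, 0.179 within slide 3 and 0.213 without those 2 livers (0.276 to 0.366 with 1 left out). The removal of row means was also chosen after seeing the data. The median r of Irf7 with type I genes was 0.352 within slide 1, and with interferon-gamma genes 0.386 without the 2 farthest livers and -0.0566, 0.903 and 0.0588 within the slides. That of Irf1 with type I genes was 0.492 within slide 2, and with interferon-gamma genes 0.295 without the 2 farthest livers and 0.578, 0.854 and 0.598 within the slides. Slides held 6 to 8 livers, so single r within them are imprecise, and Mx1 was not well above background on every array.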

Other observations

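The genes of MHC class II, which present peptides to helper T cells, had higher r with the interferon-gamma mean than with the type I mean across the 21 livers, a difference that was not tested. They were singled out after their values were seen. H2-Ab1 had r = 0.802 with the mean of the interferon-gamma genes and 0.156 with that of the type I genes, and Cd74, the invariant chain, 0.776 and 0.131. H2-Eb1 (0.763 and 0.158) and H2-Aa (0.738 and 0.147) were alike. This was not particular to class II: H2-K1 of class I had 0.586 and 0.116, and H2-D1 had 0.604 and 0.128. The 23 interferon-gamma linked genes with a value on every array had median r of 0.719 and 0.225. The r of the class II genes were not computed without HF replicate 6 and HF-Q replicate 3. The immunoproteasome subunits Psmb8 (0.853 and 0.588) and Psmb9 (0.763 and 0.537) had r above 0.5 with both means, whereas Psmb10 had 0.667 and 0.281. All of these r are descriptions over the same arrays. The mean of the whole list of 25 interferon-gamma linked genes had r = 0.95 with the interferon-gamma mean, and 0.892 without HF replicate 6 and HF-Q replicate 3. It stood at 0.442 in HF replicate 6 and 0.238 in HF-Q replicate 3.

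All 5 measured markers of plasmacytoid dendritic cells, the main source of alpha interferon, had fitted differences below 0 (median -0.088, HF-Q minus HF), none past the threshold in limma (lowest adjusted p = 0.882). So had 5 of 5 pancreatic acinar markers (median -0.421), 4 of 4 cholangiocyte markers, 3 of 3 erythroid markers and 10473 of all 19716 genes. The plasmacytoid differences were -0.297 ± 0.188 (Ly6d), -0.25 ± 0.144 (Klk1), -0.088 ± 0.059 (Tcf4), -0.029 ± 0.084 (Siglech) and -0.022 ± 0.042 (Cox6a2). Ccr9 and Runx2 of that list did not pass the filter on dim probes. Whether the signals of these markers came from plasmacytoid dendritic cells in whole liver was not tested. The mean of the plasmacytoid markers ran from -0.116 over 0.069 to 0.216 in HF livers. In HF-Q livers it ran from -0.183 over -0.107 to 0.175, and over all livers it had r = 0.077 with the type I mean.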
